A study of Mus musculus with 3 samples.

Results

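A set of genes that act as brakes on, or are switched on by, mitogen-activated protein (MAP) kinase signalling was followed in synovial cells cultured at 3 levels of stiffness. They were taken by name: the phosphatase genes Dusp1, Dusp4, Dusp5 and Dusp6, the Sprouty genes Spry1, Spry2 and Spry4, the related Spred1, and the transcription factor genes Etv4 and Etv5. All 10 members were found among the 56833 genes of the table, and all 10 were among the 11873 genes that averaged 50 or more normalized counts over the 3 libraries. The cells came from the ankle synovium of Efhd1CreER; Ai9 mice, in which a Cre recombinase driven by the Efhd1 gene switches on the red reporter tdTomato, and they had been sorted for that reporter. The labels call them telocytes and give neither the age of the mice nor how many were used. All 3 groups shared this genotype, a medium of complete DMEM with F12 nutrient mix and collagen-coated CytoSoft plates, and they differed in the stiffness of the plate over 24 h: 0.2 kPa (soft), 8 kPa (intermediate) or 64 kPa (stiff). There was 1 library per level, so there is no test, no p-value and no replicate check for any difference below, and a difference between cultures cannot be told apart from a difference between stiffness levels.

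The extracellular signal-regulated kinases (ERK) are the last kinases of a chain that runs from receptor tyrosine kinases through RAS, RAF and MEK. Active ERK switches on genes whose products then dampen the same chain, so the transcripts of these feedback genes are widely used as a readout of ERK activity. Dual-specificity phosphatases (the Dusp genes) remove the activating phosphates from MAP kinases, Sprouty and Spred proteins act further up, between the receptors and RAF, and Etv4 and Etv5 are ETS-family transcription factors induced downstream of growth factor receptors. In fibroblasts the chain responds to growth factors and to adhesion.

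The libraries held 25487064 (soft), 28081600 (intermediate) and 26474862 (stiff) reads, and the members together took 16911, 20569 and 17221 of them. Reads on Efhd1 numbered 10, 5 and 3, while tdTomato measured 818, 1193 and 2668 normalized counts in the same order. Fibroblast markers were high in every library, with summed levels of 6 genes between 207615 and 301699 normalized counts. Of 6 telocyte markers, Pdgfra, Cd34 and Foxl1 averaged 50 or more normalized counts, and Efhd1, Kit and Gli1 did not. Summed levels of 12 macrophage markers were 28778, 35357 and 61227, with all 12 higher in the stiff than in the soft library. The 5 endothelial markers summed to at most 52.3 normalized counts. Of 5 mast cell and basophil markers Cpa3, Ms4a2 and Fcer1a were at 0 reads in all libraries, and Mcpt8 was not, at 1134, 759.8 and 742. Of 5 mural markers Cspg4 and Notch3 made up most of a sum between 2278 and 3162, and among 4 skeletal muscle genes Acta1, at 168, 297 and 622, was nearly all of the sum. In bulk RNA fewer cells of a type and less RNA per cell cannot be told apart.

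The sequence before the start of 3 phosphatase genes is shown, a choice made after their values had been seen. Whether these sequences bear on the order of the libraries was not tested. Each sequence runs 5′ to 3′ from base -250 to base -51 relative to the RefSeq start. It is as RefSeq gives it for GRCm38.p6 and was placed by exact match in GRCm39. On this scale the canonical transcripts whose spans are given below start at base -47 for Dusp1, -44 for Dusp5 and -25 for Dusp6. The bases searched after those points lie inside these transcripts. The Dusp1 stretch lies at chr17:26727497-26727696 on the minus strand, that of Dusp5 at chr19:53517326-53517525 on the plus strand and that of Dusp6 at chr10:99098843-99099042 on the plus strand. Capitals mark matches to the motifs searched.
Dusp1: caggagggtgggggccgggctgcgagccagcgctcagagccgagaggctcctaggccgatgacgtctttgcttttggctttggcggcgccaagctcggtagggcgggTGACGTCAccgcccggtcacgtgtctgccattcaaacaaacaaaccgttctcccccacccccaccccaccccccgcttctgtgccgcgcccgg
Dusp5: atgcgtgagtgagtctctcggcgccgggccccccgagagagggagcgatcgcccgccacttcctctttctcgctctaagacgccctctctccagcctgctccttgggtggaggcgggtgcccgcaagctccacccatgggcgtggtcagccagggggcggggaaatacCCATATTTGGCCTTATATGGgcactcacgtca
Dusp6: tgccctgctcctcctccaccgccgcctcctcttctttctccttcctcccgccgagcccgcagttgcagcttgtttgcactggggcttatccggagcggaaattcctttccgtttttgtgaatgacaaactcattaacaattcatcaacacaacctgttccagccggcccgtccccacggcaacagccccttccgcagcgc

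The motifs were searched on both strands of the 250 bases before the RefSeq start. They were the ETS core in the form CCGGAA, the AP-1 site TGANTCA and the cyclic AMP response element TGACGTCA. The others were the TEAD site GGAATG and the CArG box, which is CC, then 6 bases of A or T, then GG. Of the members, 7 had an entry in the promoter table, with 8 promoters in all; Dusp4, Etv4 and Spry4 had none. The capitals in Dusp5 are 2 CArG boxes directly next to each other, CCATATTTGG and CCTTATATGG, which run from base -82 to base -63 and do not overlap. The CArG box is the sequence bound by serum response factor, through which many early response genes are switched on. At least 1 CArG box was found in 482 of 32851 promoters (1.47%), and 2 or more in 6 (0.0183%). The capitals in Dusp1 are a cyclic AMP response element, the site bound by CREB and related factors, which was found in 1.55% of all promoters. Spry1, not shown, held 1 TEAD site, as did 12.6% of all promoters. None of the 8 promoters held the form CCGGAA of the ETS core or the AP-1 site, which 12.03% and 6.75% of all promoters held. The shorter GGAA was not searched, and the Dusp5 and Dusp6 stretches above hold it. These matches are a description of the letters in this window and say nothing about binding in these cells.

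Per kilobase of the canonical transcript, Dusp1 and Spred1 were the most abundant members in every library and Spry1 the least. In the soft library Dusp1 stood at 1321 normalized counts per kb, Spred1 at 1055, Dusp6 at 744, Dusp5 at 478, Spry2 at 420.4, Etv5 at 378, Etv4 at 281, Dusp4 at 127, Spry4 at 126 and Spry1 at 90.4. The order of the first 7 was the same in the stiff library. In the intermediate library Spred1, at 1179.6 per kb, and Dusp1, at 1167, could not be ranked within counting error. Dusp4 and Spry4 could not be ranked in the soft and stiff libraries, nor could Spry2 and Etv5 in the stiff library. On intermediate plates Spry4 was narrowly above Dusp4, with 66.6% (63.9 to 69.2) of the reads of the pair where equal levels per kb would give 63.4%. Dusp1 stood apart in the stiff library, with 2010.3 per kb against 829.5 for Spred1.

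**Figure D1:**
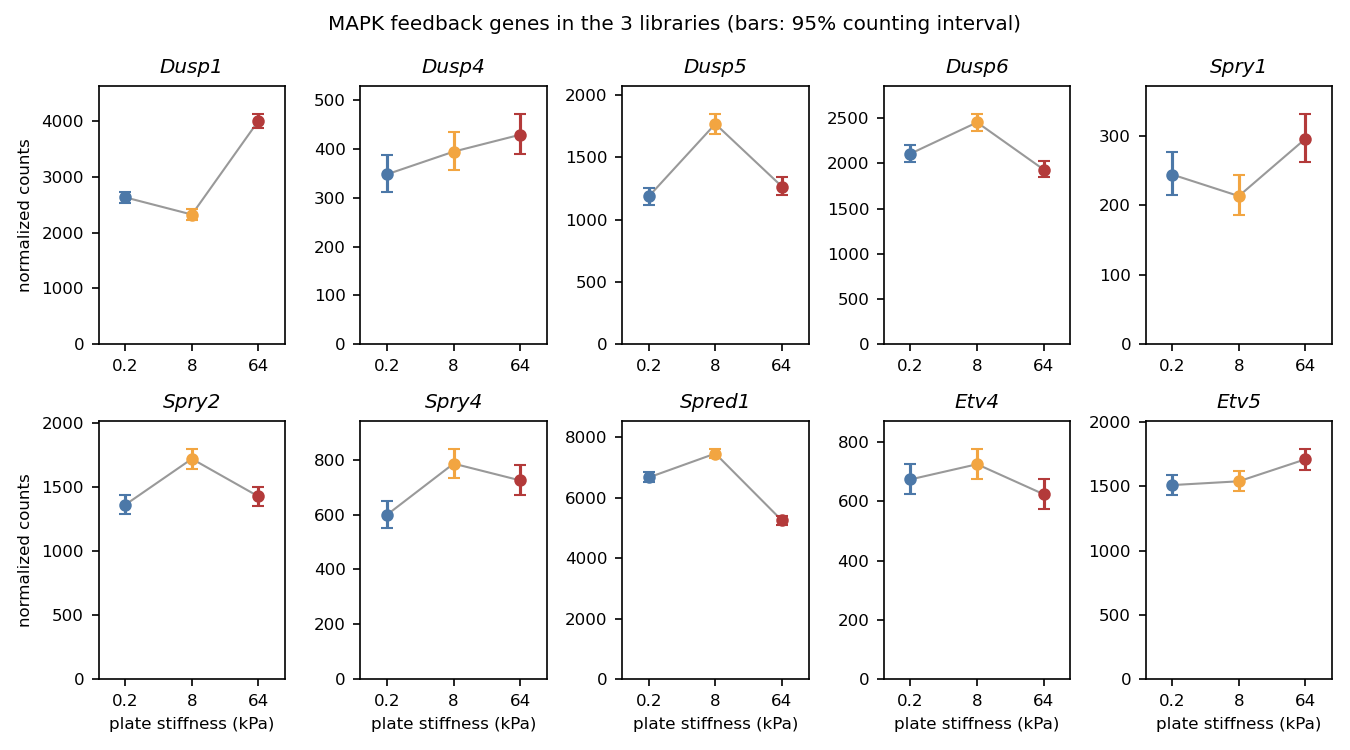
Normalized counts (vertical axis, from 0, own scale per gene) of each gene at 0.2, 8 and 64 kPa, 1 library per level; bars are exact 95% counting intervals. Dusp5, Dusp6, Spry2, Spry4, Spred1 and Etv4 are highest at 8 kPa, and Dusp1, Dusp4, Spry1 and Etv5 at 64 kPa.

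Dusp1 encodes a nuclear phosphatase that acts on p38, JNK and ERK and is induced within minutes by stress and growth factors. Its canonical transcript has 4 exons and spans bases 26724564 to 26727493 of chromosome 17 (minus strand, GRCm39). Dusp1 measured 2629.6 normalized counts on soft, 2322 on intermediate and 4000.5 on stiff plates. The stiff library was thus far above the other 2, and the intermediate library slightly below the soft one. The stiff to soft log2 ratio was 0.61, its interval running from 0.53 to 0.68, and the stiff to intermediate ratio was 0.78, from 0.71 to 0.86. The ratio of intermediate to soft was -0.18, from -0.26 to -0.10. These intervals are exact 95% Clopper-Pearson intervals of the split of reads between the libraries compared; they cover counting error only, as do all intervals below. Of all genes, 98.1% had a lower stiff to intermediate ratio than Dusp1.

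Dusp5 encodes a nuclear phosphatase selective for ERK. Its canonical transcript has 4 exons and spans bases 53517532 to 53530862 of chromosome 19 (plus strand), and its promoter carries the paired CArG boxes shown above. Dusp5 measured 1185 normalized counts on soft, 1767 on intermediate and 1264 on stiff plates. Only the intermediate library stood apart: it was 49.1% above the soft library, while soft and stiff could not be separated within counting error. The intermediate to soft log2 ratio was 0.58, from 0.47 to 0.68, the highest of the 10 members. That of stiff to intermediate was -0.48, from -0.59 to -0.38, and that of stiff to soft was 0.09, from -0.02 to 0.21. The order of the libraries for Dusp5 was therefore not that for Dusp1, although both phosphatases act in the nucleus.

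Dusp6 encodes the cytoplasmic phosphatase that is selective for ERK and holds it outside the nucleus. Its canonical transcript has 3 exons and spans bases 99099068 to 99103361 of chromosome 10 (plus strand). Dusp6 measured 2108 normalized counts on soft, 2454 on intermediate and 1932 on stiff plates. The intermediate library was again the highest, and the stiff library the lowest. The log2 ratio was 0.22 (0.14 to 0.30) for intermediate to soft, -0.34 (-0.43 to -0.26) for stiff to intermediate and -0.13 (-0.22 to -0.03) for stiff to soft. Dusp4, a further nuclear phosphatase that is itself an ERK target, measured 349, 395 and 429.7 on plates of increasing stiffness. Its stiff to soft ratio was 0.30 (0.09 to 0.51), and neither single step could be separated from 0 at this depth.

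Sprouty proteins are membrane-associated inhibitors of receptor tyrosine kinase signalling, and Spred proteins bring the RAS inactivator neurofibromin to the membrane. Spry2 measured 1362 normalized counts on soft, 1721 on intermediate and 1427.5 on stiff plates. Its pattern was that of Dusp5 at a smaller size. The intermediate to soft ratio was 0.34 (0.23 to 0.44) and the stiff to intermediate ratio -0.27 (-0.37 to -0.17). Soft and stiff could not be separated, at 0.07 (-0.04 to 0.18). Spry4 stood at 599.7, 786 and 725 in the same order of libraries. It was lowest in the soft library, with ratios of 0.39 (0.24 to 0.55) for intermediate and 0.27 (0.11 to 0.43) for stiff against soft, while intermediate and stiff could not be separated. With a trend of all ratios with transcript length and GC content subtracted, the stiff to soft ratio of Spry4 was 0.13 and its shifted interval, -0.03 to 0.29, included 0, while that of intermediate to soft was 0.32 (0.16 to 0.47).

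Spry1, the least abundant member, was highest in the stiff library, unlike Spry2, Spry4 and Spred1. It measured 244 normalized counts on soft, 213 on intermediate and 295 on stiff plates, the order also seen for Dusp1. Its stiff to intermediate ratio was 0.47 (0.21 to 0.73), and the interval of the intermediate to soft ratio, -0.19 (-0.46 to 0.07), included 0. The order of soft and intermediate was thus not settled for Spry1. Its stiff to soft ratio was 0.27 (0.02 to 0.53), of the direction and size seen for Spry4. Spred1, whose canonical transcript of 7 exons spans bases 116951540 to 117012760 of chromosome 2 (plus strand), stood at 6676, 7468 and 5252. The stiff library was the lowest, a change of -29.7% from the intermediate one. The ratios of Spred1 were 0.16 (0.11 to 0.21) for intermediate to soft, -0.51 (-0.56 to -0.46) for stiff to intermediate and -0.35 (-0.40 to -0.29) for stiff to soft. Of the reads on these 4 genes, Spred1 took 75.2% (exact 95% interval 74.2 to 76.1) on soft, 73.3% (72.5 to 74.1) on intermediate and 68.2% (67.1 to 69.3) on stiff plates.

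Etv4 and Etv5 belong to the PEA3 group of ETS factors and are standard transcriptional targets of fibroblast growth factor signalling. Etv4 measured 675 normalized counts on soft, 726 on intermediate and 625 on stiff plates. Only intermediate and stiff could be separated, with a stiff to intermediate ratio of -0.22 (-0.37 to -0.06). Etv5 stood at 1509, 1538 and 1709.5 and was highest in the stiff library, with ratios of 0.18 (0.08 to 0.28) to soft and 0.15 (0.05 to 0.25) to intermediate. With the length and GC trend subtracted both were 0.10, and the interval of the first, -0.0046 to 0.20, included 0. The share of Etv5 in the reads of both genes was 69.1% (67.1 to 71.1), 67.9% (66.0 to 69.8) and 73.2% (71.4 to 75.1) in the same order.

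**Figure D2:**
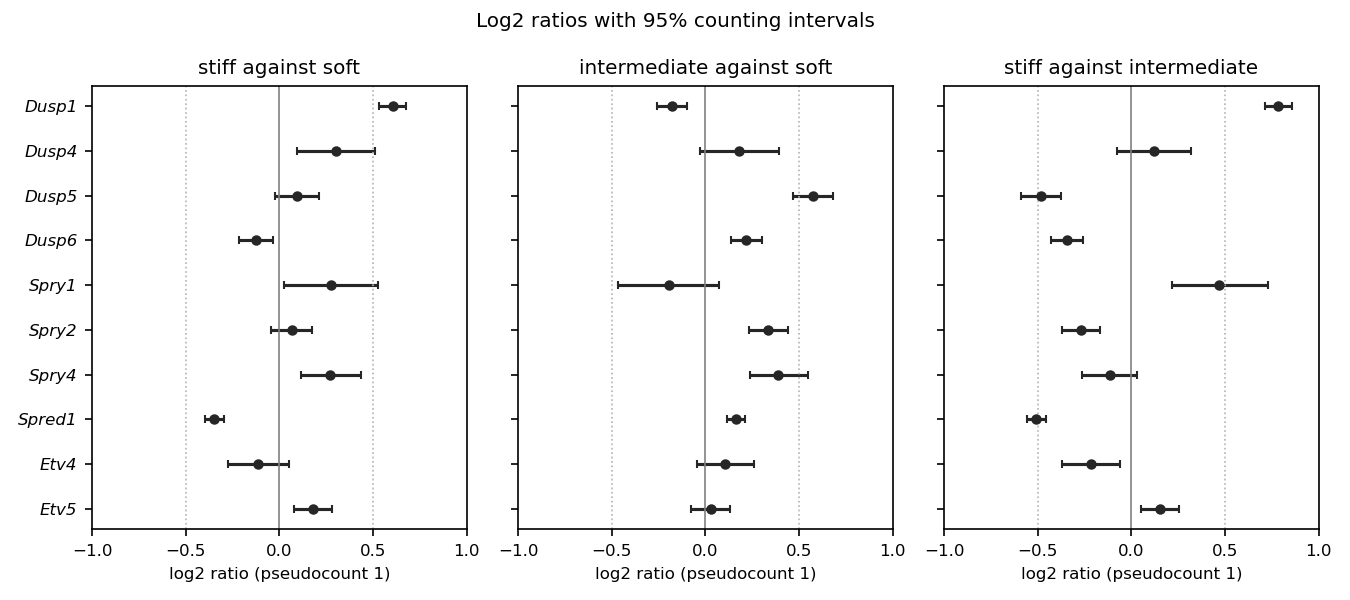
Log2 ratio of each gene in the 3 comparisons (horizontal axis, pseudocount 1); bars are exact 95% counting intervals and dotted lines mark 0.5 in size. Dusp1, at 0.61, passes 0.5 in stiff against soft, Dusp5, at 0.58, in intermediate against soft, and Dusp1 and Spred1, at 0.78 and -0.51, in stiff against intermediate.

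No member reached a log2 ratio of 1 in size, a change of 2-fold, in any comparison. Of all 11873 genes, 3.6% did so for stiff against soft, 0.168% for intermediate against soft and 1.25% for stiff against intermediate. At 0.5 in size, 1 of 10 members (Dusp1) passed for stiff against soft, where 15.6% of all genes did, and 1 of 10 (Dusp5) for intermediate against soft, where 4.6% did. Between stiff and intermediate 2 of 10 passed, Dusp1 upward and Spred1 downward, where 8.84% of all genes did. These counts are near the background. The last one depends on the setting, since both Spred1, at -0.51, and Dusp5, at -0.48, lay close to the threshold: with the length and GC trend subtracted Dusp1 and Dusp5 passed, Dusp5 at -0.54, and Spred1 did not, at -0.47, where 7.97% of all genes passed. Scaled by total reads or by the upper quartile, Dusp5 passed beside Dusp1 and Spred1, at -0.52 and -0.50, where 8.89% and 8.88% of all genes did. The counting interval of stiff against soft lay above 0 for 5 of 10 members (31.3% of all genes) and below 0 for 2 (25.9%). For intermediate against soft it lay above 0 for 5 (21.8%) and below 0 for 1 (13.5%), and for stiff against intermediate above 0 for 3 (26.3%) and below 0 for 5 (22%). With the intervals shifted by the length and GC trend, an alternative added after the data had been seen, 2 members lay above 0 for stiff against soft (Dusp1 and Spry2; 26.6% of all genes) and 3 below (Dusp6, Spred1 and Etv4; 25.3%). Dusp4, Spry1, Spry4 and Etv5, at 0.20, 0.17, 0.13 and 0.10, then had intervals that included 0. In the other comparisons the shifted counts were 5 above (15.5% of all genes) and 1 below (14.5%) for intermediate against soft, and 3 above (24.5%) and 6 below (21.2%) for stiff against intermediate. The median log2 ratio of the 10 members was 0.14 for stiff against soft, 0.17 for intermediate against soft and -0.17 for stiff against intermediate, against 0.0049, 0.012 and 0.0061 for all genes. The last 2 medians share the intermediate library.

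The order of the 3 libraries was then compared, a choice made after the values had been seen. The intermediate library was the highest for 6 of the 10 members: Dusp5, Dusp6, Spry2, Spry4, Spred1 and Etv4. Of all genes 23.2% were highest there. For 4 of the members, Dusp5, Dusp6, Spry2 and Spred1, the intermediate library was above both others with both counting intervals off 0, as for 4.03% of all genes. With the intervals shifted by the length and GC trend Spry4 joined them, making 5, where 3.53% of all genes did so. The stiff library was the highest for Dusp1, Dusp4, Spry1 and Etv5 (42.2% of all genes), and the soft library for none of the members (34.6% of all genes). Dusp1 alone had the intermediate library below both others with both intervals off 0, as did 2.80% of all genes. No test was made of these counts, since the members share libraries and were chosen with earlier results known.

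**Figure D3:**
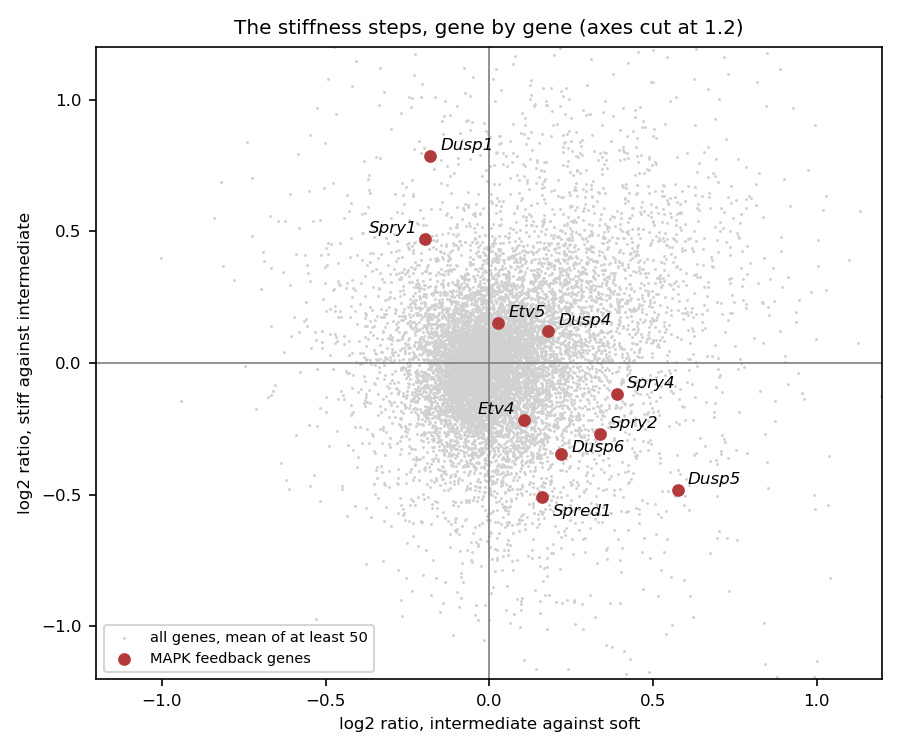
Log2 ratio of stiff against intermediate (vertical) plotted against intermediate against soft (horizontal); grey points are the 11873 genes that averaged 50 or more normalized counts, with those beyond 1.2 not drawn, and red points are the 10 members. Dusp5, Dusp6, Spry2, Spry4, Spred1 and Etv4 lie to the right of and below 0, and Dusp1 and Spry1 to the left and above; both axes share the intermediate library.

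The makeup of the phosphatase transcripts within a library does not depend on how libraries are scaled. The MAP kinase phosphatases fall into a nuclear, inducible class (Dusp1, Dusp2, Dusp4 and Dusp5), a cytoplasmic ERK-selective class (Dusp6, Dusp7 and Dusp9) and a class that acts on JNK and p38 (Dusp8, Dusp10 and Dusp16). The ERK-selective class took 36.0% (35.0 to 37.1) of the reads of all 10 phosphatases on soft, 37.5% (36.5 to 38.4) on intermediate and 29.0% (28.1 to 29.9) on stiff plates. The nuclear class took 48.7% (47.6 to 49.8), 47.0% (46.1 to 48.0) and 53.3% (52.3 to 54.2), in the same order. The class for JNK and p38 took 15.3% (14.5 to 16.1), 15.5% (14.8 to 16.2) and 17.7% (17.0 to 18.4). The shares of the stiff library thus stood apart from the other 2 in all 3 classes, but the summed levels did not all move with them. That of the ERK-selective class was 3087 normalized counts on soft, 3575 on intermediate and 3105 on stiff plates. Its stiff to soft log2 ratio was 0.01 (-0.06 to 0.08). The lower share of this class on stiff plates thus went with a sum that could not be separated from that on soft plates. Its genes did not move together: Dusp6 was lower on stiff plates, at -0.13 (-0.22 to -0.03), and Dusp7 higher, at 0.30 (0.16 to 0.43). The nuclear class summed to 4169 on soft, 4487 on intermediate and 5703 on stiff plates, a stiff to soft ratio of 0.45 (0.39 to 0.51). Most of that rise lay in Dusp1, at 2629.6 on soft and 4000.5 on stiff plates, while the ratio of Dusp5 was 0.09 (-0.02 to 0.21). The class for JNK and p38 summed to 1308 and 1894, a ratio of 0.53 (0.43 to 0.64). The trend of the ratios with transcript length and GC content was not subtracted from these sums.

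Single genes accounted for the shares unequally. Dusp1 took 30.7% (29.7 to 31.7) of the phosphatase reads on soft, 24.3% (23.5 to 25.2) on intermediate and 37.4% (36.5 to 38.3) on stiff plates. The share of Dusp5 was 13.8% (13.1 to 14.6), 18.5% (17.8 to 19.3) and 11.8% (11.2 to 12.4). Within the nuclear class the share of Dusp1 was lowest and that of Dusp5 highest on intermediate plates. Of the reads on Dusp1 and Dusp6 taken as a pair, Dusp1 held 55.5%, 48.6% and 67.4%, with intervals that did not overlap.

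**Figure D4:**
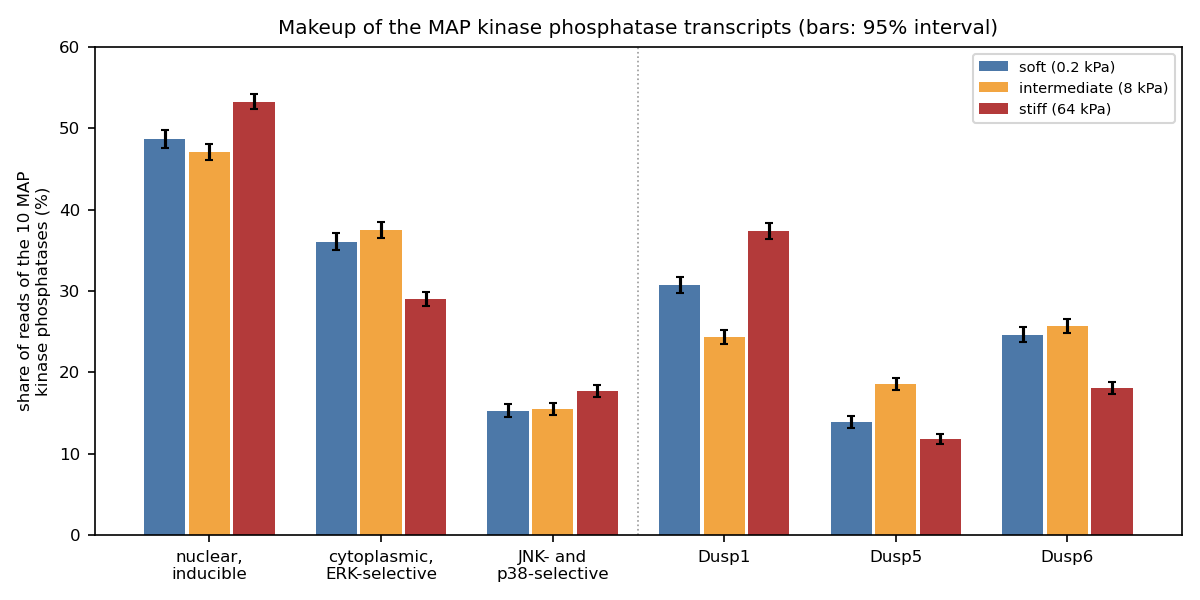
Share of the reads of 10 MAP kinase phosphatase genes (vertical axis, percent) taken by each class and, right of the dotted line, by 3 single genes; bars of each colour are 1 library, with exact 95% binomial intervals. The share of the cytoplasmic ERK-selective class is lowest in the stiff library, at 29.0%, although its summed level there, 3105 normalized counts, is close to the 3087 of the soft library; the share of Dusp1 is highest there, at 37.4%.

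Among the 6 other phosphatase genes of the family, 5 averaged 50 or more normalized counts. Dusp8 measured 79.96, 107 and 209 on plates of increasing stiffness, with a stiff to soft ratio of 1.38 (1.004 to 1.78). Dusp10 stood at 424, 435 and 791, with a ratio of 0.90 (0.72 to 1.07). Both phosphatases act on JNK and p38, and both were highest in the stiff library, as Dusp1 was. Dusp16, the third gene of that class, was highest in the intermediate library, at 804, 934 and 894, but intermediate and stiff could not be separated. Dusp7 and Dusp16 had stiff to soft ratios of 0.30 and 0.15, Dusp9 of 0.01, and Dusp2 had at most 8 reads. After subtraction of a trend of the ratios with transcript length and GC content, the ratio was 0.96 for Dusp8, 0.86 for Dusp10, 0.06 for Dusp7, 0.06 for Dusp16, -0.09 for Dusp9 and 0.59 for Dusp1. Spred2, the closest relative of Spred1, stood at 1489.6, 1814 and 1613, highest in the intermediate library as Spred1 was. Spred3, the remaining Spred gene, stood at 512, 550.5 and 605, highest in the stiff library, but stiff and intermediate could not be separated.

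The rest of the chain, with p38, JNK and ERK5 genes beside it, was described from 12 lists of 110 genes in all, of which 100 had a mean of at least 50. For stiff against soft 4 of the 100 passed a log2 ratio of 1 in size, all upward (Pdgfb, Csf1r, Dusp8 and Epha2), against 3.6% of all genes. Csf1r, the receptor of a macrophage growth factor, is also 1 of the 12 macrophage markers above. In the same comparison 21 passed 0.5 upward and 3 downward, against 11.8% and 3.77% of all genes. After that same subtraction only Csf1r, at 1.13, passed 1, where 2.5% of all genes did, and Pdgfb, Dusp8 and Epha2 stood at 0.89, 0.96 and 0.85. The counts past 0.5 were then 16 upward and 1 downward, with 7.69% and 3.99% of all genes. For intermediate against soft none passed 1, and 4 passed 0.5 upward and 0 downward, against 3.94% and 0.657%, or 2 and 0 with the trend subtracted, against 2.11% and 0.67% of all genes so corrected. For stiff against intermediate 1 (Epha2) passed 1, and 8 passed 0.5 upward and 6 downward, against 5.42% and 3.42%. With the trend subtracted these counts were 0, 6 and 3, against 4.77% and 3.20% of all genes past 0.5 upward and downward. The intermediate library was the highest for 23 of the 100, a share of 23.0% against 23.2% of all genes. The stiff to soft median of the 6 MEK and ERK genes was 0.02. Of these 6, Mapk7 and Map2k5 belong to the separate ERK5 chain. Only Mapk7, at 0.55, passed 0.5 among the 6, and with the trend subtracted it did not, at 0.39. Mapk3 and Map2k1, which encode ERK1 and MEK1, had ratios of -0.03 and -0.01. The median was 0.17 for 11 RAS and RAF genes, or 0.11 with the trend subtracted, of which Rras2 at 0.61 and Ksr1 at 0.73 passed 0.5. With the trend subtracted Rras2 stood at 0.71 and Ksr1 at 0.32.

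Of 12 other genes commonly induced by ERK that averaged 50 or more, 11 were higher in the stiff than in the soft library, as were 51.1% of all genes, and 11 in the intermediate than in the soft library, as were 53.5%. Their medians were 0.39 and 0.26. Etv1, Ets1 and Ets2 were highest in the intermediate library, 3 of the 12, where 23.2% of all genes were. Intermediate and stiff could not be separated for Ets1 and Ets2, nor intermediate and soft for Etv1. Fos, a subunit of AP-1, measured 660.2, 909.7 and 1153 normalized counts on plates of increasing stiffness. Egr1, an early zinc finger factor, stood at 6895, 10499.8 and 11459, so that most of its difference lay in the first step, and Fosl1 stood at 2204, 2639.6 and 3162. Phlda1 stood at 1572, 2049 and 3009.9, and Epha2, an ephrin receptor, at 859, 880.5 and 1808. All 5 were highest in the stiff library, as were Dusp1, Dusp4, Spry1 and Etv5, but with the length and GC trend subtracted Egr1 was not: its stiff to intermediate ratio was 0.13 as deposited and -0.05 after the subtraction, and its stiff to soft ratio 0.73 and 0.43. Etv1, the third PEA3 factor, stood at 575, 593 and 460.5, highest in the intermediate and lowest in the stiff library like Etv4.

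Among receptor ligands, Ereg and Hbegf, both ligands of the epidermal growth factor receptor family, showed each of the main orders. Ereg measured 5424, 8041 and 5662 normalized counts on plates of increasing stiffness, with ratios of 0.57 (0.52 to 0.62) for intermediate to soft and -0.51 (-0.56 to -0.46) for stiff to intermediate, close in size to those of Dusp5. Hbegf stood at 1539, 1964 and 2550.4, with a stiff to soft ratio of 0.73 (0.64 to 0.82). Of 12 ligands with a mean of at least 50, 4 were highest in the intermediate library, as were 4 of 12 RAS GAPs and other brakes and 23.2% of all genes. Among those brakes, Errfi1, an ERK-induced inhibitor of the epidermal growth factor receptor, stood at 13423, 16377 and 10295 and was likewise highest at 8 kPa, with a stiff to intermediate ratio of -0.67 (-0.71 to -0.63). Both were among 7 of the 100 genes whose intermediate value lay above both others with both intervals off 0, as were 4.03% of all genes; the others were Vegfa, Pdgfra, Pdgfrb, Rasa1 and Spred2. With the trend subtracted the intermediate to soft ratio was 0.03 for Pdgfra and -0.07 for Pdgfrb, and neither was then among such genes. Rasa2 and Egr1 were, so that the count was again 7, where 3.53% of all genes were.

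**Figure D5:**
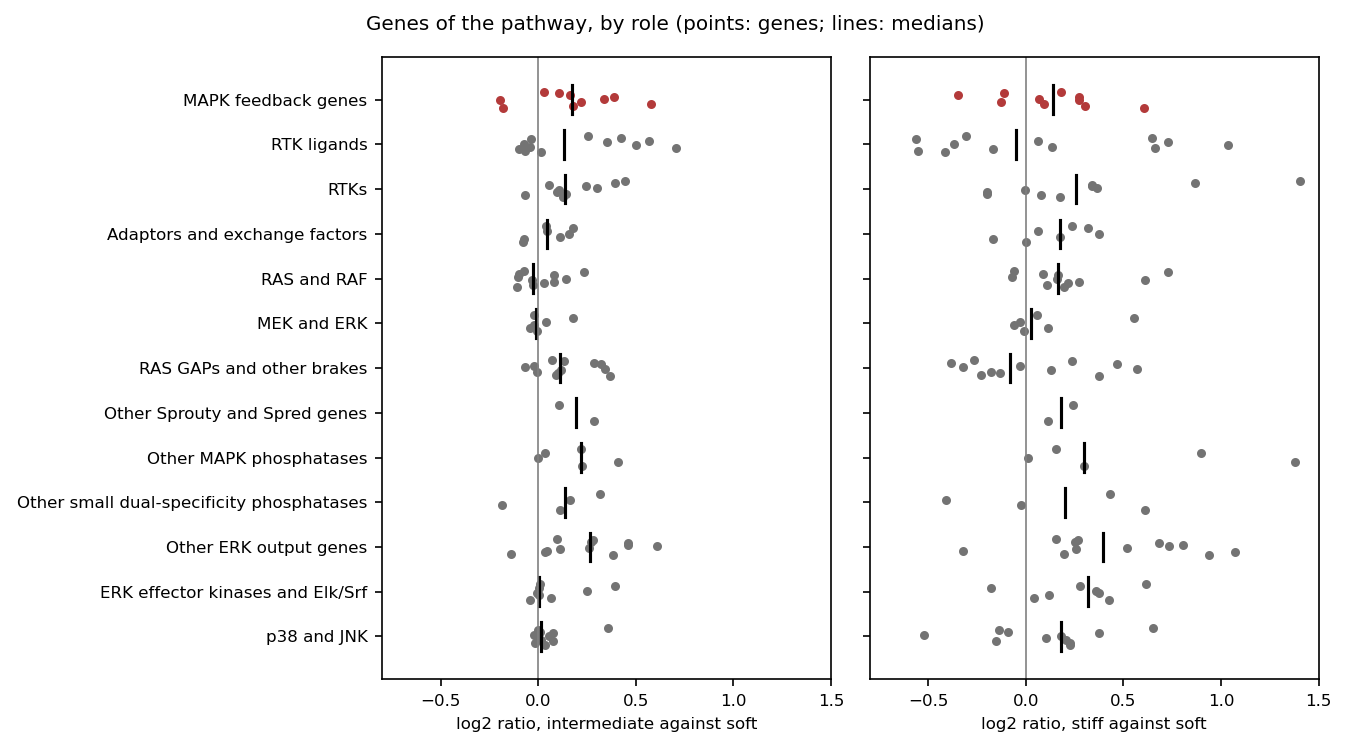
Log2 ratios of intermediate against soft (left) and stiff against soft (right) for the 10 members (red) and the 12 lists of other MAP kinase signalling genes (grey). Only genes that averaged 50 or more normalized counts are drawn. Each point is a gene and black lines are medians. The median of the 12 other ERK output genes is 0.26 on the left and 0.39 on the right, and that of the 10 members is 0.17 and 0.14.

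Profiles over 3 libraries can be shared by many genes. Among 10525 named genes outside the lists with a mean of at least 100, those closest to Dusp1 by the Euclidean distance between centred log2 profiles were Morrbid, Cryab and Whamm, at distances of 0.021, 0.023 and 0.035. Only 10 genes lay within 0.1 of Dusp1. Cryab, a small heat shock protein gene, measured 5397, 4696 and 8267 normalized counts on plates of increasing stiffness. Closest to Spred1 were Fzd3, Zfp709 and Rassf8, with 137 genes within 0.1, and closest to Etv5 were Marchf3, Aste1 and Tdrd7, with 1691 within 0.1.

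Macrophage markers followed stiffness in these libraries, and Dusp1 and the phosphatases of the JNK and p38 class are not restricted to fibroblasts. Of the 12 markers, 12 were higher in the intermediate than in the soft library and 11 in the stiff than in the intermediate library, with no marker at 0. Their median stiff to soft ratio was 1.09 over the 11 with a mean of at least 50, against 0.61 for Dusp1. The order of the libraries for the marker sum was soft, intermediate, stiff, and of the members only Dusp4 and Etv5 had this order in the deposited values. Outside the members, Dusp8, Dusp10, Fos, Fosl1, Phlda1 and Hbegf, among others, had it too, and Dusp16 did not. Neither single step of Dusp4 could be separated from 0, and the intermediate to soft ratio of Etv5, 0.03 (-0.07 to 0.13), was -0.0080 under upper quartile scaling and -0.0036 with the trend subtracted. The part of macrophages in the levels of the members and of these other genes was not tested. The ratios of all genes also moved with transcript length and GC content; with that trend subtracted, the ratios of the members stayed inside their counting intervals, and the same 6 were highest in the intermediate library. Of the 10 canonical transcripts, 7 overlap a gene model on the other strand in GENCODE vM39. The 5 such models that are in the table had at most 7 reads in any library.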

How the data were processed

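RNA was sequenced from 3 cultures with stranded poly(A) libraries, per the labels' protocols. Each deposited signal value is a count of reads per gene over a size factor of its library; the authors' file names call them DESeq2-normalized. The submitters' processing notes name bcl2fastq 2.20.0, STAR 2.7.9a, featureCounts of Subread 2.0.1, DESeq2 1.34.0 and GRCm39; annotation, strand setting and filters are not given in the sources used here. The 3 files hold 1 identical table, with 1 column per sample title. All positive values were whole multiples of the smallest (100.0% within 0.01), so reads were recovered; a count-based test needs replicates and was not made. One read was worth 1.03 (soft), 0.943 (intermediate) and 1.03 (stiff) normalized counts. Amplified reads are not independent molecules, so intervals cover counting error only.

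Log2 ratios use a pseudocount of 1, which understates the change of low genes. Genes averaging 50 or more normalized counts were compared at log2 ratios of 1 and 0.5 in size. Lengths, GC contents and positions are those of the canonical transcripts of GENCODE vM39 (GRCm39), matched by symbol. The length and GC trend was fitted locally, as a weighted plane through the 300 genes closest in log2 length and GC content, over genes averaging 10 or more. Named genes were the members, the listed genes and, for the most abundant member of each of 3 families, the 3 nearest profiles. Alternatives were other pseudocounts, scalings (TMM by edgeR 4.0.16), filters and thresholds, and the subtracted trend. The members and lists were chosen with earlier results of these data known. The code of the fold rule, intervals and local fit was checked on simulated data, which held no variation between cultures. scikit-learn 1.9.0, scipy 1.17.1 and Python 3.11.15 did the computing, with R 4.3.3 for edgeR.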

Additional observations from a re-analysis of the deposited data

How the results depend on the processing

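With 1 library per level no replicate could be left out. No paired analysis was possible because each level had 1 library. The order of the libraries was examined after seeing the data; the other alternatives, save 2 given below, were fixed beforehand with earlier results known. Of the 30 log2 ratios of members, 29 stayed inside their counting intervals under each of 7 alternatives (2 pseudocounts, 4 scalings and the subtracted length and GC trend), and none with an interval off 0 changed sign. The exception was Spred1 between stiff and soft, at -0.40 under scaling by total reads and by the upper quartile. With the trend subtracted, 2 members had a stiff to soft interval above 0, against 5 without; this alternative was also added after seeing the data, and the other counts of intervals off 0 stayed within 1 of theirs. The number of members highest in the intermediate library was 6 under all 4 scalings and with the trend subtracted.

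The count of members past the threshold was 0 in all 3 comparisons under the pseudocounts, scalings, filters and the subtracted trend. At a log2 ratio of 0.5 it was 1 for stiff against soft, 1 for intermediate against soft and 2 for stiff against intermediate. The last stayed 2 with the trend subtracted, with Dusp5 in place of Spred1, and was 3 under scaling by total reads and by the upper quartile, with Dusp5 added; the other pseudocounts and scalings left all 3 counts as they were. These settings were applied to the 0.5 threshold after seeing the data. At 0.25 it was 5, 3 and 6, by construction of the looser threshold, which 38.9%, 18.3% and 28.7% of all genes passed. With a mean of at least 10, 1 gene of the pathway lists passed between intermediate and soft, Areg, against 0 with a mean of at least 50, since more genes were counted. Depth limits statements on Spry1 and Dusp4, with 226 to 419 reads a library, whose single steps below about 0.2 could not be separated from 0.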
